A study of Homo sapiens with 12 samples.

Results

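The 39 genes described here serve homologous recombination, the Fanconi anaemia pathway and the DNA damage checkpoints, and they are genes whose transcription has been linked to the kinase CDK12. They were taken by name from a list of these pathways, and all 39 were found among the 23617 gene names of the table. RNA was measured in MOLT4, an established human T-cell acute lymphoblastic leukaemia line. Cells were kept for 6 h with 250 nM THAL-SNS-032, 250 nM SNS-032, 250 nM NVP-2 or the vehicle alone (0.1% DMSO), with 3 libraries in every group and 12 altogether. All cells were the same line with no genetic change stated in the labels, and polyadenylated RNA was sequenced in strand-specific libraries with ERCC spike-in RNA added when the cells were lysed. SNS-032 is an inhibitor of several cyclin-dependent kinases that include CDK9. THAL-SNS-032 joins SNS-032 through a linker to a thalidomide-derived group that binds the ubiquitin ligase receptor cereblon. NVP-2 is a chemically distinct CDK9 inhibitor. The labels name no separate cultures, so each p-value measures only the spread between these libraries.

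Homologous recombination repairs a DNA double-strand break by copying an intact sister chromatid: the MRN complex and ATM sense the break, nucleases resect its ends, and BRCA1, PALB2 and BRCA2 carry the repair on from the exposed strand. The Fanconi proteins unhook crosslinked strands, and the ATR kinase protects stalled replication forks. CDK12 with its partner cyclin K phosphorylates RNA polymerase II during elongation, and its loss is known to lower several of these transcripts, many of them from long genes in which it holds back the use of early polyadenylation sites. The measure here is 1 level per gene and does not separate full-length from shortened transcripts.

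The values are FPKM, a read density corrected for transcript length and library size, on the scale the authors deposited. They are given on 2 scales. The deposited scale uses these values unchanged. On it the library medians of the spike-ins stayed between -0.017 and 0.058 (log2). How the authors used the spike-ins to set it is not given. The scale relative to the median gene subtracts from each library the median change of all tested genes from DMSO, and asks whether a repair gene lost more or less than the typical transcript. Its standard errors leave out the error of the centring itself. Differences are in mean log2(FPKM + 1), with a standard error (SE) from a limma fit over all 11379 genes with a mean of at least 1 FPKM. A gene was called where its Benjamini-Hochberg adjusted p, over these 11379 genes, was under 0.05. All 39 repair genes passed the level filter. In bulk RNA, fewer cells of a type and less RNA per cell cannot be told apart. Of 10 T-lineage markers, 9 or 10 reached a mean of 1 FPKM in every group, and of 4 B-lineage markers only CD79A did. Of 4 myeloid markers, 3 reached 1 FPKM with THAL-SNS-032, 1 with SNS-032, 0 with NVP-2 and 0 in DMSO, and their summed level was at most 5.34 FPKM in any library. Their part in the results was not tested.

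All 39 repair genes were lower with each of the 3 compounds than in DMSO on the deposited scale, and in each comparison all 3 compound libraries lay below all 3 DMSO libraries. Nearly every gene in these cells did the same. The compound libraries lay below DMSO for 95.9% of tested genes with THAL-SNS-032, 94.8% with SNS-032 and 97.8% with NVP-2, and limma called 94.8% of tested genes lower with THAL-SNS-032, 94.6% with SNS-032 and 97.1% with NVP-2, so a count of 39 is near the background. The median repair gene kept 19.97% of its DMSO level with THAL-SNS-032, 15.2% with SNS-032 and 12.2% with NVP-2, beside 22.1%, 22.1% and 12.1% for the median tested gene. The median log2 difference was -2.19 with THAL-SNS-032, -2.46 with SNS-032 and -2.81 with NVP-2, against -1.90, -1.92 and -2.54 over all tested genes. No repair gene was called higher by limma with any compound on this scale (1.37% of tested genes were with THAL-SNS-032, 1.54% with SNS-032 and 0.448% with NVP-2), and 0 had an unadjusted p under 0.05 in that direction.

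The spread of the losses was wide. EXO1 kept 2.34% of its DMSO level under THAL-SNS-032 and 1.39% under NVP-2, the lowest of the 39 in each. FANCA kept 59.9% under THAL-SNS-032 and 35.7% under NVP-2, the highest in each. With SNS-032 the lowest was FANCE at 5.98% and the highest was PALB2 at 39.1%. Mean levels over the 39 genes spanned 0.510 FPKM (FANCM) to 43.9 FPKM (TIMELESS) with THAL-SNS-032, 0.747 FPKM (FANCM) to 34.6 FPKM (TIMELESS) with SNS-032 and 0.301 FPKM (PALB2) to 28.4 FPKM (TIMELESS) with NVP-2. In DMSO they spanned 6.53 FPKM (FANCB) to 164 FPKM (RAD51C), with a median of 32.0 FPKM. The first SNS-032 library was lower than the other two across genes: the median repair gene stood at 10.4%, 18.5% and 17.1% of DMSO in the 3 SNS-032 libraries, and the median tested gene at -2.32, -1.68 and -1.77 on the log2 scale. The 3 libraries of THAL-SNS-032 (19.5%, 21.1% and 19.1%) and of NVP-2 (11.0%, 12.8% and 11.9%) lay closer together.

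**Figure D1:**
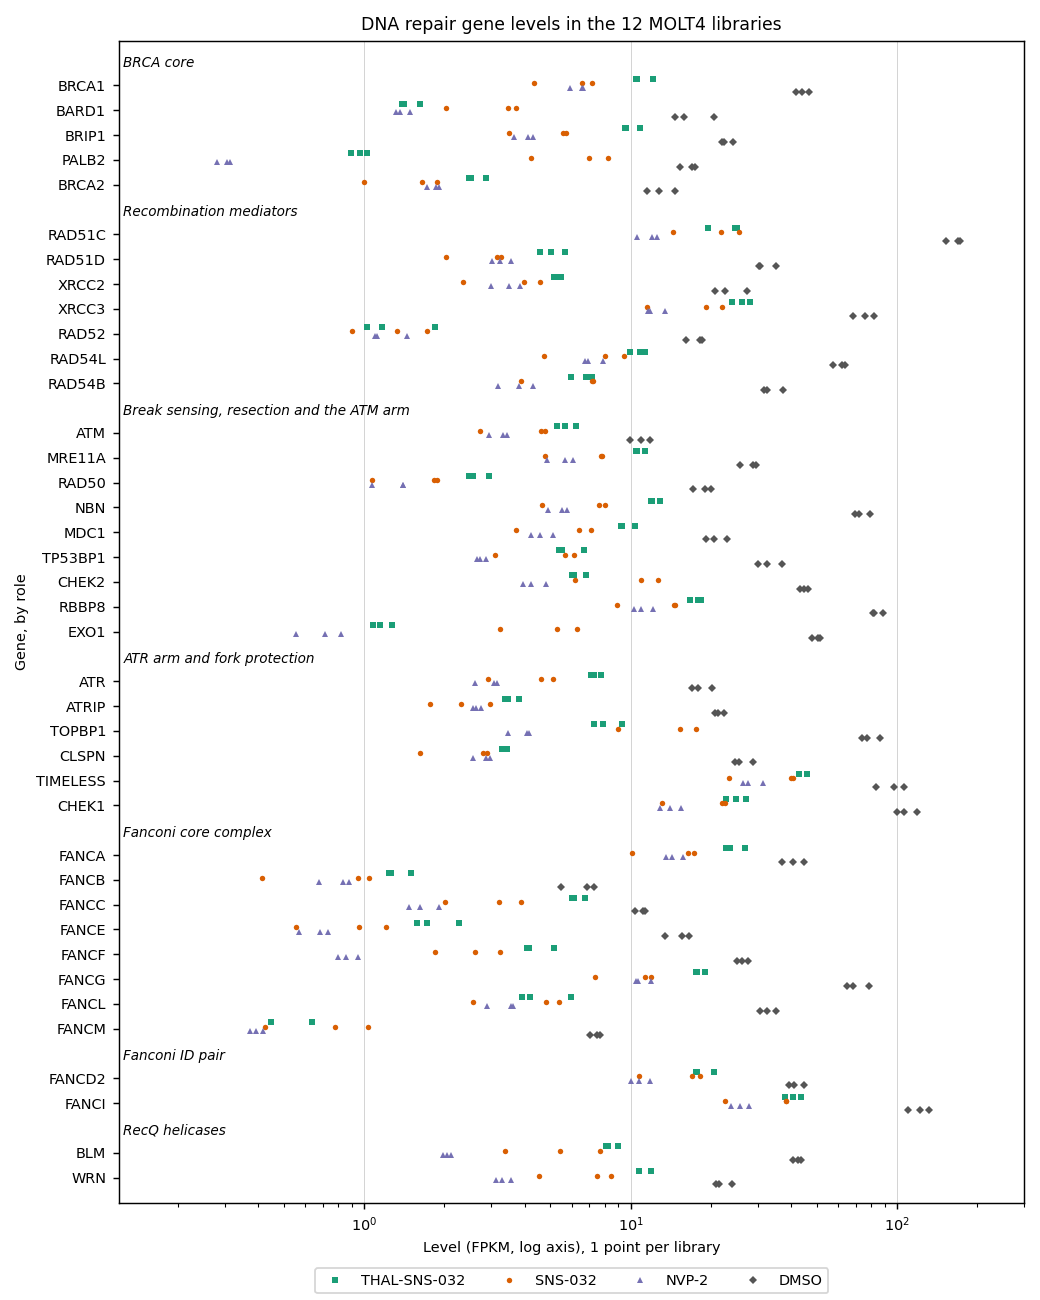
FPKM of the 39 repair genes (log axis), grouped by role, with 1 point per library and 3 libraries per group. For every gene the 9 compound libraries sit left of the 3 DMSO libraries, and PALB2 and FANCM have the lowest mean NVP-2 levels, while TIMELESS is the highest gene with each compound.

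Relative to the median gene, the repair genes divided. With THAL-SNS-032, 22 of the 39 were called lower and 12 higher, where 41.9% of tested genes were lower and 41.9% higher, and their median difference was -0.28. With SNS-032, 27 were called lower and 8 higher, where 41.5% and 40.9% of tested genes were, with a median of -0.54. With NVP-2, 20 were called lower and 13 higher, where 42.7% and 42.4% were, with a median of -0.27. The counts move with the level that is set to 0. Centring each library on its own median gene shifts every gene by the same amount, and it put the median tested gene at 0.36 with THAL-SNS-032, 0.25 with SNS-032 and 0.42 with NVP-2. The split became 15 lower and 18 higher with THAL-SNS-032 (29.2% and 57.2% of tested genes), 22 lower and 12 higher with SNS-032 (31.1% and 52.6%), and 10 lower and 20 higher with NVP-2 (28.1% and 59.7%). A uniform shift cannot change the distance of the repair median from the median tested gene, which stays by construction at -0.29, -0.54 and -0.27. Quantile normalization, which is not a uniform shift, gave 16 lower and 16 higher with THAL-SNS-032 (39.1% and 45.9% of tested genes), 24 lower and 12 higher with SNS-032 (41.3% and 41.5%), and 13 lower and 19 higher with NVP-2 (38.6% and 47.1%). There the repair median stood at -0.11 from the median tested gene with THAL-SNS-032, -0.42 with SNS-032 and 0.023 with NVP-2. A pseudocount of 0.1 FPKM put that distance at -0.17, -0.56 and -0.0051 in the same order. Testing only genes with a mean of at least 5 FPKM, 35 of them repair genes, put it at -0.16, -0.41 and -0.039. The lower repair median with NVP-2 therefore did not hold in every setting.

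Called higher than the median gene with all 3 compounds were 7 genes: ATM, MDC1, TIMELESS, FANCA, FANCC, FANCD2 and WRN. Each still lost transcript on the deposited scale, so higher here means a smaller loss. A pseudocount of 5 FPKM ended the call of TIMELESS with at least 1 compound. Called lower with all 3 were 19 genes: BARD1, RAD51C, RAD51D, RAD54L, RAD54B, RAD50, RAD52, NBN, TP53BP1, CHEK2, RBBP8, EXO1, TOPBP1, CLSPN, CHEK1, FANCE, FANCF, FANCL and BLM. With quantile normalization the 7 stood above the median tested gene with every compound, and 16 of the 19 stood below it, the exceptions being CLSPN, RAD54B and RBBP8. The call as lower with all 3 was kept there by 7 of the 19, EXO1, TOPBP1, RAD51C, NBN, FANCE, RAD50 and RAD52. Own-median centring kept only 5 of the 19 calls, and centring on genes of at least 5 FPKM kept 12. These 2 settings shift all genes alike, so the place of a gene against the median tested gene cannot change in them. A pseudocount of 5 FPKM kept 15 of the 19 calls, losing BARD1, FANCE, RAD50 and RAD52, and one of 0.1 FPKM kept 14, losing BLM, CHEK1, CHEK2, RAD54L and RBBP8. BARD1 also lost the call when DMSO replicate 1 or 3 or SNS-032 replicate 1 or 2 was left out. CHEK2 lost it without DMSO replicate 1 or SNS-032 replicate 1. Fitting only the libraries of each pair ended both calls. Among the remaining 13 genes the compounds differed: PALB2 was higher with SNS-032 and lower with THAL-SNS-032 and NVP-2, BRIP1 was the reverse, and MRE11A, ATR and FANCI were higher with THAL-SNS-032 and NVP-2 and not called with SNS-032. The SNS-032 call of BRIP1 was lost with a pseudocount of 0.1 or 5 FPKM and turned positive with quantile normalization. The calls of FANCI also depended on the setting, and a pseudocount of 5 FPKM turned its NVP-2 call to lower. XRCC3 was lower with SNS-032, higher with THAL-SNS-032 and not called with NVP-2, and BRCA2 was lower with SNS-032, higher with NVP-2 and not called with THAL-SNS-032. BRCA1, XRCC2 and FANCG were called with SNS-032 alone, as lower, though for BRCA1 the calls with the other two compounds depended on the setting. ATRIP and FANCM were lower with THAL-SNS-032 and SNS-032 and not called with NVP-2, and FANCB was called with NVP-2 alone, as higher. These comparisons share the DMSO libraries, so calls in the same direction with all 3 compounds are not independent. The share of all tested genes called alike with all 3 is not given here. The counts of 7 and 19 therefore have no background beside them.

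**Figure D2:**
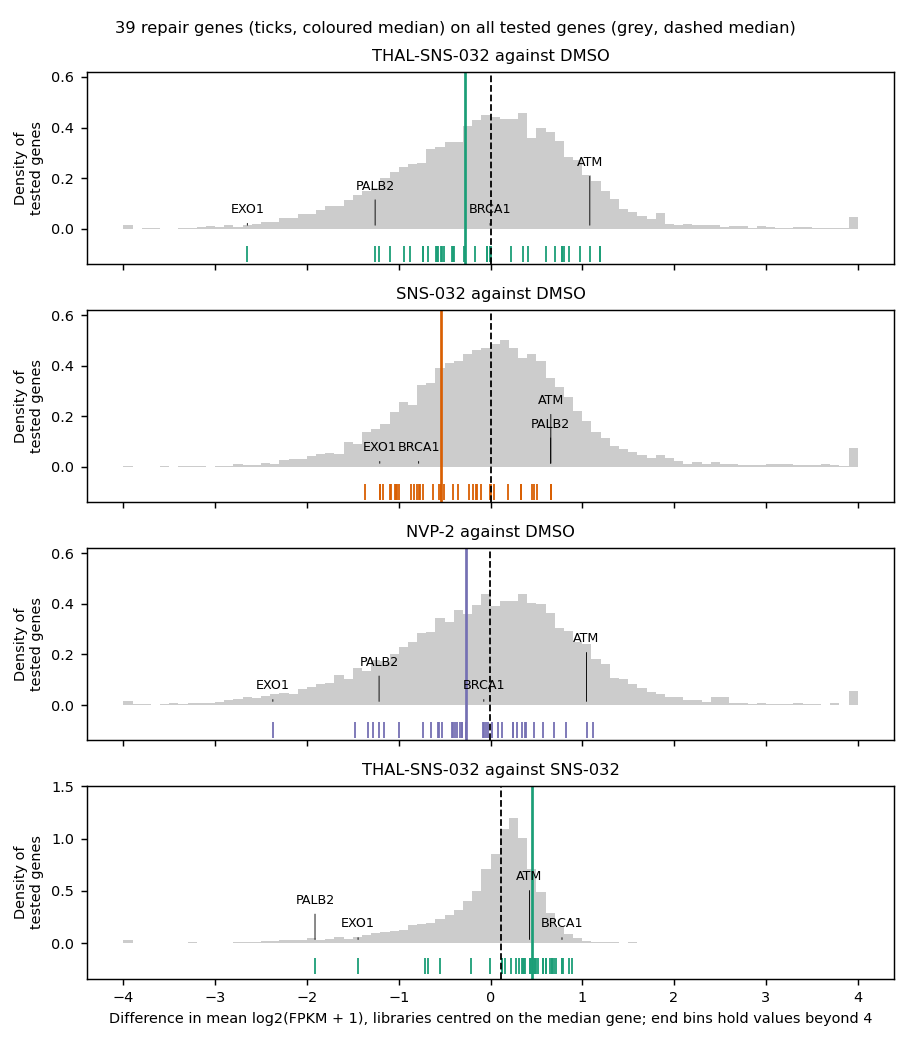
Differences in mean log2(FPKM + 1) relative to the median gene, for all 11379 tested genes (grey density, dashed median, values beyond 4 held in the end bins) and for the 39 repair genes (ticks, coloured median). EXO1 stands at the low edge of the repair genes with THAL-SNS-032 and NVP-2 and ATM near their high edge, and between THAL-SNS-032 and SNS-032 most ticks lie right of the dashed median while PALB2 and EXO1 lie far left.

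Promoters are shown for the repair genes that differed most between THAL-SNS-032 and SNS-032 and have a single start in the RefSeq table: PALB2 and BARD1, lower with THAL-SNS-032, and BRIP1 and FANCG, higher with it. Each is the 250 bases before the start in GRCh38.p14, written 5′ to 3′ on the gene's own strand, with motif matches in capitals. PALB2 is at chr16:23641311-23641560, BARD1 at chr2:214809684-214809933, BRIP1 at chr17:61863529-61863778 and FANCG at chr9:35079943-35080192, all on the minus strand.
PALB2: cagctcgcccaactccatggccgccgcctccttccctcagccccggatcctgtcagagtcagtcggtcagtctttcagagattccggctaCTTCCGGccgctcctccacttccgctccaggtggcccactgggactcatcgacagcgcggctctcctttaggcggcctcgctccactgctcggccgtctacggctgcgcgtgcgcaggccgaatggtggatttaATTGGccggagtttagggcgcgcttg
BARD1: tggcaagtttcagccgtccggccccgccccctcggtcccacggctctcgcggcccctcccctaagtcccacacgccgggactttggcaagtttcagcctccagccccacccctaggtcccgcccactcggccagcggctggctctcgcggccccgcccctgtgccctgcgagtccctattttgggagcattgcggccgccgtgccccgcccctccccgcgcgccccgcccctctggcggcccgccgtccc
BRIP1: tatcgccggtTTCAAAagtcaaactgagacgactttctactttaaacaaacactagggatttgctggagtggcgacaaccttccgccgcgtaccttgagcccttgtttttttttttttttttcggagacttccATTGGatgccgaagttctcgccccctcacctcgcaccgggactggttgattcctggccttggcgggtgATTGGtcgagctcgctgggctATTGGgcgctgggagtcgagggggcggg
FANCG: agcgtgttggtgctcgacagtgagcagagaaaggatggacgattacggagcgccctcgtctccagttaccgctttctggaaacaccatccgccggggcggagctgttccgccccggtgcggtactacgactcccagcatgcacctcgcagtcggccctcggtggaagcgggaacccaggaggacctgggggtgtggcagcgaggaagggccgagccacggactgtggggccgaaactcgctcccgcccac
The capitals in PALB2 are CTTCCGG, the reverse complement of the ETS letters CCGGAAG, starting 160 bases before the start, and ATTGG, the reverse complement of the NF-Y letters CCAAT, 26 bases before it. In BRIP1 they are TTCAAA, the reverse complement of the cell cycle homology region (CHR) letters TTTGAA, 240 bases before the start, and ATTGG at 117, 49 and 28 bases. BARD1 and FANCG held none of the letters searched.

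Over the 35 repair genes with an entry, CCAAT on either strand was in 18 promoters (51.4%), beside 42.4% of promoters of tested genes and 32.0% of all promoters of this length. CCGGAAG was in 10 (28.6%), beside 21.0% and 8.52%. TTTGAA was in 4 (11.4%), beside 11.5% and 13.3%. The E2F letters TTTCCCGC, TTTGGCGC or TTTCGCGC were in 1, FANCC (2.86%, beside 5.08% and 2.32%), and the NRF1 motif in 1, RBBP8 (2.86%, beside 2.63% and 1.03%). These are matches of letters only.

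The BRCA core acts at resected DNA, and its 5 genes went different ways. PALB2, which bridges BRCA1 and BRCA2, had 0.895, 0.961 and 1.03 FPKM with THAL-SNS-032, 4.24, 8.24 and 6.96 FPKM with SNS-032, 0.306, 0.281 and 0.315 FPKM with NVP-2, and 16.99, 15.3 and 17.4 FPKM in DMSO. The THAL-SNS-032 and NVP-2 libraries were far below the SNS-032 libraries, with no overlap between any pair of groups. PALB2 was called lower than the median gene with THAL-SNS-032 (-1.26, SE 0.08) and NVP-2 (-1.21, SE 0.08) and higher with SNS-032 (0.66, SE 0.08).

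BRCA1, the ubiquitin ligase and scaffold that starts recombination, had 10.5, 12.1 and 10.4 FPKM with THAL-SNS-032, 4.34, 7.15 and 6.54 FPKM with SNS-032, 5.93, 6.56 and 6.63 FPKM with NVP-2, and 41.7, 43.8 and 46.8 FPKM in DMSO. The THAL-SNS-032 libraries were above all SNS-032 and NVP-2 libraries, which overlapped each other. BRCA1 was called lower than the median gene with SNS-032 (-0.78, SE 0.04) and not called with THAL-SNS-032 (-0.0043, SE 0.04) or NVP-2 (-0.07, SE 0.04). In the order THAL-SNS-032 and NVP-2, BRCA1 was called higher with a pseudocount of 0.1 FPKM (0.16 and 0.20) and with quantile normalization (0.29 and 0.39), and lower with a pseudocount of 5 FPKM (-0.22 and -0.28). BARD1, the obligate partner of BRCA1, had 1.62, 1.38 and 1.41 FPKM with THAL-SNS-032, 2.03, 3.48 and 3.72 FPKM with SNS-032, 1.31, 1.48 and 1.37 FPKM with NVP-2, and 15.8, 14.7 and 20.5 FPKM in DMSO. Here the order was the opposite, with SNS-032 above THAL-SNS-032 in every library and THAL-SNS-032 overlapping NVP-2.

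BRIP1, a helicase that binds BRCA1, had 9.53, 10.8 and 9.62 FPKM with THAL-SNS-032, 3.50, 5.74 and 5.55 FPKM with SNS-032, 3.67, 4.29 and 4.12 FPKM with NVP-2, and 22.4, 22.1 and 24.2 FPKM in DMSO. The THAL-SNS-032 libraries were above those of SNS-032 and NVP-2, which overlapped. It kept 43.6% of its DMSO level with THAL-SNS-032, the most of the BRCA core with that compound, against 21.5% with SNS-032 and 17.6% with NVP-2. BRCA2, a tumour suppressor that binds PALB2, had 2.53, 2.86 and 2.47 FPKM with THAL-SNS-032, 1.00, 1.88 and 1.65 FPKM with SNS-032, 1.72, 1.90 and 1.86 FPKM with NVP-2, and 12.7, 11.5 and 14.6 FPKM in DMSO. Its THAL-SNS-032 libraries lay above those of SNS-032 and NVP-2, and relative to the median gene it was called lower with SNS-032 (-0.56, SE 0.06), higher with NVP-2 (0.24, SE 0.06) and neither with THAL-SNS-032 (-0.04, SE 0.06). With THAL-SNS-032 BRCA2 was called higher with a pseudocount of 5 FPKM (0.16) and with quantile normalization (0.19), and that pseudocount also ended its call with SNS-032 (-0.049).

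The recombination mediators assist the search for the matching strand and its exchange. All 7 were called lower than the median gene with SNS-032 (41.5% of tested genes were), 5 of 7 with THAL-SNS-032 (41.9%) and 5 of 7 with NVP-2 (42.7%). RAD51C, the binding partner of XRCC3 and the highest repair gene in DMSO, had 19.4, 24.7 and 25.1 FPKM with THAL-SNS-032, 14.5, 25.6 and 21.8 FPKM with SNS-032, 10.5, 12.5 and 12.1 FPKM with NVP-2, and 152, 169 and 172 FPKM in DMSO. The THAL-SNS-032 and SNS-032 libraries overlapped and lay above NVP-2. RAD51C was lower than the median gene with THAL-SNS-032 (-0.88, SE 0.07), SNS-032 (-1.04, SE 0.07) and NVP-2 (-1.16, SE 0.07).

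XRCC3 had 24.1, 28.05 and 26.1 FPKM with THAL-SNS-032, 11.5, 22.04 and 19.2 FPKM with SNS-032, 11.8, 13.4 and 11.6 FPKM with NVP-2, and 68.4, 76.01 and 82.1 FPKM in DMSO. The THAL-SNS-032 libraries were highest of the compounds, and SNS-032 overlapped NVP-2. Its 34.5% of DMSO with THAL-SNS-032 was the highest of the 7, and 23.3% with SNS-032 and 16.3% with NVP-2 likewise. XRCC3 was called higher than the median gene with THAL-SNS-032 (0.41, SE 0.06) and lower with SNS-032 (-0.16, SE 0.06). The SNS-032 call was lost with quantile normalization (-0.022) and with a pseudocount of 0.1 FPKM (0.042), and a pseudocount of 5 FPKM ended the call with THAL-SNS-032 (0.022). With NVP-2 XRCC3 was not called, but the call went to higher with a pseudocount of 0.1 FPKM (0.36) and quantile normalization (0.43) and to lower with 5 FPKM (-0.39). The other 5 kept between 7.64% (RAD52) and 22.7% (XRCC2) with THAL-SNS-032, between 7.49% (RAD52) and 18.0% (RAD54B) with SNS-032, and between 6.96% (RAD52) and 14.6% (XRCC2) with NVP-2. Reads of RAD51D may be shared with a readthrough transcript that the table lists as RAD51L3-RFFL.

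Break sensing, resection and the ATM arm held the gene with the deepest loss under THAL-SNS-032 and NVP-2. EXO1, a nuclease that resects break ends, had 1.15, 1.27 and 1.08 FPKM with THAL-SNS-032, 3.24, 6.32 and 5.31 FPKM with SNS-032, 0.555, 0.714 and 0.817 FPKM with NVP-2, and 47.8, 50.5 and 51.4 FPKM in DMSO. The THAL-SNS-032 and NVP-2 libraries were each below all SNS-032 libraries. EXO1 was lower than the median gene by the widest margin of the 39 with THAL-SNS-032 (-2.65, SE 0.06) and NVP-2 (-2.37, SE 0.06), and also lower with SNS-032 (-1.21, SE 0.06).

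ATM, the kinase that signals double-strand breaks, had 5.30, 6.22 and 5.69 FPKM with THAL-SNS-032, 2.73, 4.79 and 4.59 FPKM with SNS-032, 2.93, 3.43 and 3.33 FPKM with NVP-2, and 10.96, 9.95 and 11.9 FPKM in DMSO. The THAL-SNS-032 libraries were above those of SNS-032 and NVP-2, which overlapped. ATM kept 52.5% with THAL-SNS-032, 37.0% with SNS-032 and 29.6% with NVP-2, and was called higher than the median gene with each (1.08, SE 0.05, 0.66, SE 0.05 and 1.05, SE 0.05). NBN, the MRN subunit that recruits ATM, had 12.01, 12.9 and 11.9 FPKM with THAL-SNS-032, 4.65, 8.01 and 7.59 FPKM with SNS-032, 4.91, 5.79 and 5.54 FPKM with NVP-2, and 71.9, 69.7 and 79.05 FPKM in DMSO. The order of the groups was the same as for ATM, with a deeper loss. NBN lay below the median gene with each compound, at -0.58, SE 0.04 with THAL-SNS-032, -1.37, SE 0.04 with SNS-032 and -1.0003, SE 0.04 with NVP-2.

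The 3 MRN subunits kept different shares. MRE11A, the nuclease, kept 38.5% of DMSO with THAL-SNS-032, 24.2% with SNS-032 and 19.7% with NVP-2, while RAD50, the tethering ATPase, kept 14.2%, 8.50% and 6.89%. MDC1, the scaffold that reads phosphorylated H2AX, kept 45.9% with THAL-SNS-032, 27.5% with SNS-032 and 22.1% with NVP-2. TP53BP1, which holds back resection, kept 17.7%, 15.0% and 8.28%, and RBBP8, the resection factor CtIP, kept 21.1%, 15.2% and 13.3%. CHEK2, the effector kinase of ATM, kept 14.1%, 22.2% and 9.67%. CHEK2, BRCA1 and FANCD2 have pseudogene copies, and how the authors assigned shared reads is not given in the sources used here.

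In the ATR arm, 4 of 6 genes were called lower than the median gene with THAL-SNS-032 (41.9% of tested genes were), 4 with SNS-032 (41.5%) and 3 with NVP-2 (42.7%). ATR, the kinase of stalled forks, had 7.11, 7.74 and 7.31 FPKM with THAL-SNS-032, 2.91, 5.10 and 4.61 FPKM with SNS-032, 2.61, 3.14 and 3.07 FPKM with NVP-2, and 17.9, 16.9 and 20.1 FPKM in DMSO. Its THAL-SNS-032 libraries lay above the others, and ATR was higher than the median gene with THAL-SNS-032 (0.70, SE 0.05) and NVP-2 (0.25, SE 0.05) and not called with SNS-032 (0.01, SE 0.05). TOPBP1, which activates ATR, had 7.90, 9.32 and 7.30 FPKM with THAL-SNS-032, 8.99, 17.6 and 15.3 FPKM with SNS-032, 3.48, 4.16 and 4.10 FPKM with NVP-2, and 73.6, 76.8 and 85.9 FPKM in DMSO. The THAL-SNS-032 and SNS-032 libraries overlapped above NVP-2. TOPBP1 was lower than the median gene with each compound, at -1.22, SE 0.07 with THAL-SNS-032, -0.54, SE 0.07 with SNS-032 and -1.48, SE 0.07 with NVP-2.

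TIMELESS, a component of the fork protection complex, had 42.98, 45.9 and 42.8 FPKM with THAL-SNS-032, 23.4, 39.8 and 40.6 FPKM with SNS-032, 26.4, 31.4 and 27.4 FPKM with NVP-2, and 83.2, 97.6 and 106 FPKM in DMSO. The SNS-032 and NVP-2 libraries overlapped below THAL-SNS-032. TIMELESS remained the highest of the 39 genes with each compound and was above the median gene with THAL-SNS-032 (0.80, SE 0.06), SNS-032 (0.45, SE 0.06) and NVP-2 (0.82, SE 0.06). CHEK1, the effector kinase of ATR, had 22.9, 27.1 and 24.9 FPKM with THAL-SNS-032, 13.1, 22.01 and 22.5 FPKM with SNS-032, 12.9, 15.4 and 14.03 FPKM with NVP-2, and 99.8, 106 and 119 FPKM in DMSO. The THAL-SNS-032 libraries were just above the SNS-032 libraries, which overlapped NVP-2. CHEK1 was below the median gene with THAL-SNS-032 (-0.17, SE 0.05), SNS-032 (-0.54, SE 0.05) and NVP-2 (-0.31, SE 0.05). The calls with THAL-SNS-032 and NVP-2 were lost with a pseudocount of 0.1 FPKM (0.035 and 0.041) and with quantile normalization (-0.094 and 0.015). ATRIP, the partner of ATR, kept 16.5% with THAL-SNS-032, 10.9% with SNS-032 and 12.3% with NVP-2, and CLSPN, the claspin mediator of CHEK1 activation, kept 12.8%, 9.27% and 10.6%.

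The Fanconi core complex is the ubiquitin ligase that marks FANCD2 and FANCI at crosslinks. FANCA, a core subunit, had 23.6, 26.8 and 22.7 FPKM with THAL-SNS-032, 10.1, 17.4 and 16.3 FPKM with SNS-032, 13.6, 15.7 and 14.3 FPKM with NVP-2, and 37.02, 40.6 and 44.6 FPKM in DMSO. The THAL-SNS-032 libraries were above those of SNS-032 and NVP-2, which overlapped. FANCA was above the median gene with THAL-SNS-032 (1.19, SE 0.04), SNS-032 (0.47, SE 0.04) and NVP-2 (1.12, SE 0.04). FANCF, an adaptor subunit, had 4.15, 5.15 and 4.09 FPKM with THAL-SNS-032, 1.84, 3.24 and 2.62 FPKM with SNS-032, 0.949, 0.798 and 0.858 FPKM with NVP-2, and 26.2, 25.2 and 27.6 FPKM in DMSO. The 4 groups did not overlap, and FANCF was below the median gene with THAL-SNS-032 (-0.42, SE 0.08), SNS-032 (-1.03, SE 0.08) and NVP-2 (-1.33, SE 0.08).

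FANCC, which sits with FANCE and FANCF in the complex, had 6.11, 6.74 and 6.00 FPKM with THAL-SNS-032, 2.02, 3.89 and 3.20 FPKM with SNS-032, 1.47, 1.91 and 1.62 FPKM with NVP-2, and 11.1, 10.4 and 11.3 FPKM in DMSO. Again the 4 groups did not overlap, and FANCC was above the median gene with THAL-SNS-032 (1.19, SE 0.05), SNS-032 (0.33, SE 0.05) and NVP-2 (0.37, SE 0.05). FANCE kept 12.3% of DMSO with THAL-SNS-032, 5.98% with SNS-032 and 4.36% with NVP-2, and FANCG kept 25.7%, 14.5% and 15.6%. FANCB kept 20.4%, 12.3% and 12.2%, FANCL, the catalytic subunit, 14.4%, 13.0% and 10.3%, and FANCM, the DNA translocase, 6.89%, 10.1% and 5.32%.

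FANCD2 and FANCI form the clamp that the core complex modifies. FANCD2 had 17.5, 20.6 and 17.8 FPKM with THAL-SNS-032, 10.7, 18.2 and 17.03 FPKM with SNS-032, 10.01, 11.9 and 10.8 FPKM with NVP-2, and 39.3, 41.02 and 44.7 FPKM in DMSO. FANCI had 37.9, 43.5 and 40.6 FPKM with THAL-SNS-032, 22.5, 38.3 and 38.1 FPKM with SNS-032, 23.9, 27.7 and 25.6 FPKM with NVP-2, and 110, 122 and 131 FPKM in DMSO. For each, the THAL-SNS-032 and SNS-032 libraries overlapped, and FANCD2 kept a larger share than FANCI with every compound: 44.7% against 33.6% with THAL-SNS-032, 36.8% against 27.2% with SNS-032 and 26.1% against 21.2% with NVP-2. FANCD2 was above the median gene with THAL-SNS-032 (0.78, SE 0.04), SNS-032 (0.51, SE 0.04) and NVP-2 (0.69, SE 0.04). FANCI was above it with THAL-SNS-032 (0.35, SE 0.05) and NVP-2 (0.35, SE 0.05) and not called with SNS-032 (0.04, SE 0.05). A pseudocount of 5 FPKM made FANCI called lower with SNS-032 (-0.35) and NVP-2 (-0.21) and not called with THAL-SNS-032 (-0.069). A pseudocount of 0.1 FPKM and quantile normalization each made it called higher with all 3 compounds.

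BLM and WRN are RecQ helicases that unwind recombination intermediates. BLM had 8.24, 8.99 and 8.07 FPKM with THAL-SNS-032, 3.37, 7.69 and 5.44 FPKM with SNS-032, 1.99, 2.13 and 2.05 FPKM with NVP-2, and 40.8, 42.3 and 43.6 FPKM in DMSO, and WRN had 10.8, 11.9 and 10.7 FPKM with THAL-SNS-032, 4.52, 8.47 and 7.46 FPKM with SNS-032, 3.13, 3.55 and 3.29 FPKM with NVP-2, and 20.9, 21.4 and 23.9 FPKM in DMSO. For each the 4 groups did not overlap, with THAL-SNS-032 highest of the compounds and NVP-2 lowest. WRN was above the median gene with THAL-SNS-032 (0.98, SE 0.04), SNS-032 (0.33, SE 0.04) and NVP-2 (0.13, SE 0.04), while BLM was below it with THAL-SNS-032 (-0.29, SE 0.08), SNS-032 (-0.86, SE 0.08) and NVP-2 (-1.28, SE 0.08). The THAL-SNS-032 call of BLM was lost with quantile normalization (0.012, where the median tested gene stood at 0.074) and with a pseudocount of 0.1 FPKM (-0.16).

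THAL-SNS-032 was compared with SNS-032, its parent without the cereblon ligand, at the same dose and time; it was 1 of 3 compound pairs, each adjusted over all tested genes. Most repair genes stood higher with THAL-SNS-032, and a few, led by PALB2 and EXO1, stood lower. On the deposited scale 18 of the 39 were called higher (13.4% of tested genes were), 4 were called lower (16.7% of tested genes) and 17 were not called. The median difference was 0.47, against 0.14 over all tested genes. All 3 THAL-SNS-032 libraries were above all 3 SNS-032 libraries for 26 repair genes (25.5% of tested genes), below them for 3 (15.9%), and overlapping for 10. With only the 6 libraries of this pair in the fit, 6 were called higher (4.46% of tested genes), and without THAL-SNS-032 replicate 2, 9 (5.40%).

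In the limma fit PALB2 was lower with THAL-SNS-032 by the widest margin (-1.89, SE 0.17, adjusted p = 1.97e-06), followed by EXO1 (-1.42, SE 0.17, adjusted p = 2.62e-05), BARD1 (-0.70, SE 0.17, adjusted p = 0.00731) and TOPBP1 (-0.66, SE 0.20, adjusted p = 0.024). PALB2 averaged 0.961 ± 0.0660 FPKM under THAL-SNS-032 and 6.48 ± 2.04 FPKM under SNS-032 (SD, n = 3 each), and EXO1 averaged 1.17 ± 0.0972 and 4.96 ± 1.57 FPKM. The call of TOPBP1 was lost in several alternatives, with adjusted p = 0.0582 from limma with no filter on low genes and 0.110 with only the pair's libraries. On the higher side of the same limma fit were BRIP1 (0.91, SE 0.16, adjusted p = 7.29e-04), FANCC (0.88, SE 0.16, adjusted p = 0.00103), NBN (0.81, SE 0.17, adjusted p = 0.00314) and BRCA1 (0.80, SE 0.17, adjusted p = 0.00231). These 4 did not overlap between the compounds, and none of the alternatives tried ended their calls. BRIP1 averaged 10.0 ± 0.735 FPKM under THAL-SNS-032 and 4.93 ± 1.24 FPKM under SNS-032, and NBN averaged 12.3 ± 0.512 and 6.75 ± 1.83 FPKM (SD, n = 3 each).

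Genes that were not called were not thereby alike. For 23 of the 39 repair genes the 95% interval did not reach a 2-fold difference, as for 76.9% of tested genes. RAD51C differed by 0.18 with an interval of -0.24 to 0.60, FANCD2 by 0.30 with -0.10 to 0.69, TIMELESS by 0.38 with -0.06 to 0.81, and CHEK1 by 0.39 with -0.02 to 0.81. Relative to the median gene, which takes out the low first SNS-032 library, 29 were called higher (42% of tested genes), 6 lower (BARD1, PALB2, CHEK2, EXO1, TOPBP1 and FANCM; 27.1%) and 4 neither, with a median of 0.45 against 0.12 over all tested genes.

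**Figure D3:**
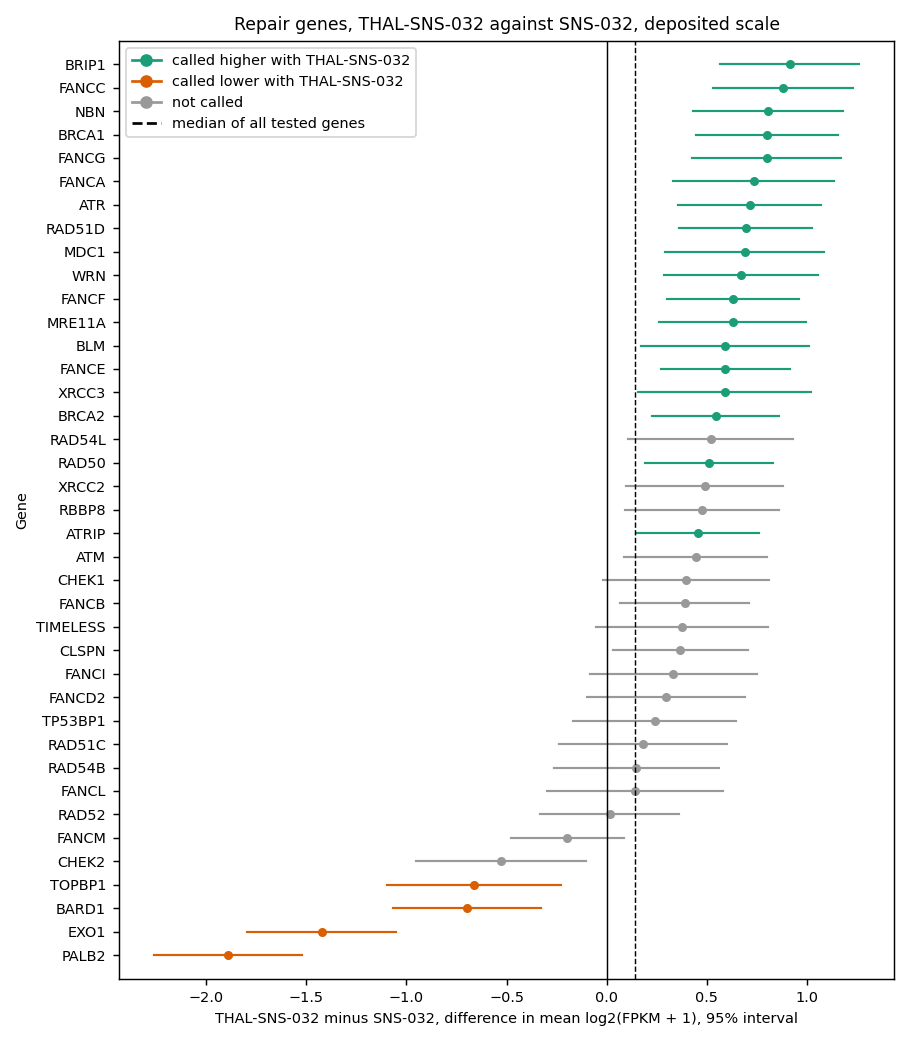
Difference in mean log2(FPKM + 1) between THAL-SNS-032 and SNS-032 on the deposited scale for the 39 repair genes, with 95% intervals from the limma fit, sorted by size. The 18 genes called higher with THAL-SNS-032 stand right of the dashed median of all tested genes (0.14), and PALB2, EXO1, BARD1 and TOPBP1 are the 4 called lower.

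Against NVP-2 at the same dose and time, THAL-SNS-032 left more of most repair transcripts, as it did of most tested genes. On the deposited scale 32 of 39 were called higher (70% of tested genes) and none lower (0.993% of tested genes; limma, with 0 repair genes at an unadjusted p under 0.05 in that direction). The median was 0.68, against 0.64 over all tested genes. For 37 genes all THAL-SNS-032 libraries were above all NVP-2 libraries (84.7% of tested genes), and BARD1 and RAD52 overlapped. In the limma fit BLM (1.63, SE 0.20, adjusted p = 2.47e-05), FANCF (1.54, SE 0.15, adjusted p = 6.09e-06), WRN (1.49, SE 0.18, adjusted p = 2.52e-05) and FANCC (1.45, SE 0.16, adjusted p = 1.54e-05) differed most. EXO1 was not called by limma (0.36, SE 0.17, adjusted p = 0.0781). Relative to the median gene 15 were called higher and 10 lower, where 34.8% and 31.9% of tested genes were. With quantile normalization the split was 13 higher and 18 lower (31.1% and 35.6% of tested genes), and with centring on genes of at least 5 FPKM it was 9 higher and 17 lower (24.8% and 45.4%), a split near the background.

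SNS-032 left more than NVP-2 of some repair transcripts, and PALB2 and EXO1 led them. On the deposited scale 12 were called higher with SNS-032 (52.6% of tested genes) and none lower (0.782%; limma, with 0 repair genes at an unadjusted p under 0.05 in that direction), with a median of 0.24 against 0.48. The 12 were BARD1, PALB2, RAD51C, RAD54B, TP53BP1, CHEK2, EXO1, TOPBP1, FANCC, FANCF, BLM and WRN. By limma, PALB2 (2.48, SE 0.17, adjusted p = 3.37e-08), EXO1 (1.78, SE 0.17, adjusted p = 8.55e-07), TOPBP1 (1.56, SE 0.20, adjusted p = 1.52e-05) and BLM (1.03, SE 0.20, adjusted p = 4.59e-04) differed most. Without SNS-032 replicate 1 the count was 29 (81.6% of tested genes). Relative to the median gene 27 were called lower with SNS-032 and 7 higher, where 45.3% and 30.9% of tested genes were, with a median of -0.38 against -0.13.

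CDK12 itself averaged 3.35 ± 0.165 FPKM with THAL-SNS-032, 5.54 ± 1.75 with SNS-032, 3.39 ± 0.198 with NVP-2 and 29.1 ± 2.20 in DMSO (SD, n = 3 each). Its partner CCNK, cyclin K, averaged 13.2 ± 1.36, 31.9 ± 8.98, 6.94 ± 0.774 and 69.1 ± 4.68 FPKM in the same groups, and the related kinase CDK13 averaged 2.09 ± 0.366, 2.94 ± 0.991, 1.04 ± 0.0604 and 20.9 ± 1.09 FPKM. Between THAL-SNS-032 and SNS-032 limma gave CDK12 (-0.55, SE 0.18, adjusted p = 0.0321) and CCNK (-1.18, SE 0.20, adjusted p = 4.41e-04) as lower, while CDK13 (-0.33, SE 0.17, adjusted p = 0.154) and CDK9 (-0.02, SE 0.19, adjusted p = 0.942) were not called.

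Gene span, the distance from first to last annotated base in GENCODE 29, was longer for the repair genes, with a median of 69.9 kb against 29.01 kb over tested genes. The shortest was FANCF at 2.95 kb and the longest FANCC at 328 kb. Across the 39 genes, Spearman's rho between span and the difference relative to the median gene was 0.28 with THAL-SNS-032, 0.29 with SNS-032 and 0.20 with NVP-2, and 0.098 between THAL-SNS-032 and SNS-032. Over the 10985 tested genes with a span it lay between -0.014 and 0.045 in these 4. The genes share libraries and are not independent, so these are descriptions. Of the genes over 80 kb, FANCC, WRN (140 kb) and ATM (147 kb) were called above the median gene with each compound. RBBP8 (228 kb), TP53BP1 (108 kb), BARD1, RAD54B, RAD50, FANCL and BLM were called below it with each compound. The call of BARD1 was lost without some single libraries. BRCA1, BRIP1, BRCA2 and ATR were called differently between the compounds.

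In length classes the pattern was uneven. Repair genes over 80 kb (14 genes) had a median of -0.16 with THAL-SNS-032, -0.49 with SNS-032 and -0.17 with NVP-2, where tested genes of that span had 0.15, 0.087 and 0.13. Those of 40 to 80 kb (13 genes) had -0.58, -0.54 and -0.31, beside -0.074, -0.089 and -0.073 for tested genes. Those of 20 to 40 kb (7 genes) had -0.40, -0.51 and -0.085, beside -0.12, -0.089 and -0.15. Those under 20 kb (5 genes) had 0.0048, -0.77 and -0.032, beside -0.019, 0.0080 and 0.0016.

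**Figure D4:**
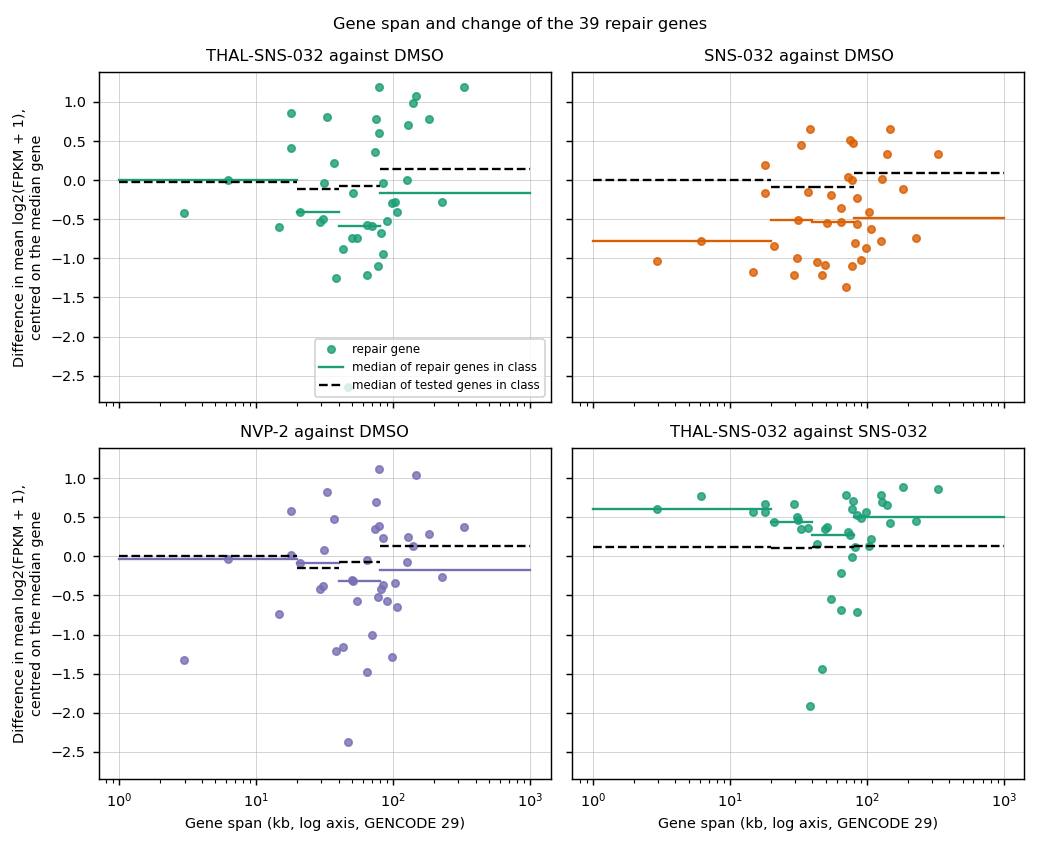
Difference relative to the median gene against gene span (log axis, kb) for the 39 repair genes in 4 comparisons, with medians of repair genes (solid) and tested genes (dashed) in 4 span classes. The tested genes stay near 0 in every class against DMSO, and the repair genes scatter widely within each class.

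Other repair genes give a frame for these values. Of 96 tested genes of other recombination, Fanconi, checkpoint, end joining, mismatch, nucleotide excision and base excision lists, 54 were lower and 31 higher than the median gene with THAL-SNS-032, 57 lower and 24 higher with SNS-032, and 53 lower and 29 higher with NVP-2. Of all tested genes 41.9% were lower and 41.9% higher with THAL-SNS-032, 41.5% lower and 40.9% higher with SNS-032, and 42.7% lower and 42.4% higher with NVP-2. Their medians were -0.28, -0.47 and -0.26, beside -0.28, -0.54 and -0.27 for the 39. Nucleotide excision repair, which removes bulky lesions, had the highest medians of these lists, 0.37 with THAL-SNS-032, 0.13 with SNS-032 and 0.37 with NVP-2. The other checkpoint genes had -0.74, -0.58 and -0.83, the lowest with THAL-SNS-032 and NVP-2. The lowest with SNS-032 was -0.66, for the other recombination genes. Between THAL-SNS-032 and SNS-032 on the deposited scale, 21 of the 96 were called higher and 11 lower (13.4% and 16.7% of tested genes), with a median of 0.28, beside 18 and 4 of the 39 with a median of 0.47. That difference between the lists was not tested.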

How the data were processed

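The authors deposited FPKM per gene, made with HISAT on hg19 and Cufflinks 2.0.0, per the submitters' processing notes. The annotation, any use of strand and how the spike-ins set the scale are not given in the sources used here. No counts are given, so read depth is unknown and no counting interval is given. From 23713 entries, 92 ERCC entries and 4 with 2 repeated symbols were removed. One limma 3.58.1 fit (R 4.3.3, with trend) over the 4 groups gave 6 comparisons (two-sided, 8 residual degrees of freedom) on log2(FPKM + 1), a scale that understates changes of low genes. Named genes came from a rule: the largest and smallest loss in each role list, 6 genes set by name, and the 4 largest called differences of each compound pair, with FANCG shown for its promoter and other genes given by their share of DMSO. 1 gene of the other repair lists is not reported here. Members, lists and rule were chosen with earlier results of these data known. Gene span came from GENCODE 29, on a build other than hg19, a choice made after the design was set, and it is used as a length only. Promoters came from RefSeq on GRCh38.p14, where 35 genes matched, with bases after the start left out. The fit was checked on simulated data in which few genes changed and the noise was independent between genes. That check does not cover a loss of nearly every gene or a shift of a whole library. Alternatives changed 1 choice at a time: the pseudocount, the filter, trend, robust fitting, the pair's libraries alone, a replicate block, each library left out, the spike-in medians and the centring. Plots used Python 3.11.15 and matplotlib 3.10.9.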

Additional observations from a re-analysis of the deposited data

How the results depend on the processing

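The direction on the deposited scale held in every setting tried: all 39 repair genes were called lower than DMSO with each compound, except that a filter at a mean of 5 FPKM left 35 to test, and these 35 were called lower. Their median differences with a pseudocount of 5 FPKM were -1.63 with THAL-SNS-032, -1.82 with SNS-032 and -2.00 with NVP-2, and 0.49 between THAL-SNS-032 and NVP-2; with 0.1 FPKM THAL-SNS-032 gave -2.31 and NVP-2 gave -2.97. Between THAL-SNS-032 and SNS-032, repair genes called higher numbered 6 with only the 6 libraries of the pair (4.46% of tested genes). They numbered 9 to 24 with 1 library left out, 9 being without THAL-SNS-032 replicate 2 (5.40%). Between SNS-032 and NVP-2 they numbered 10 to 29 with 1 library left out, 29 being without SNS-032 replicate 1 (81.6%). The shares of tested genes at 24 and at 10 are not given here, so these counts have no background beside them.

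On the centred scale, the median over the repair genes moved more. Own-median centring and centring on genes of at least 5 FPKM shift all genes alike, so that the distance of the repair median from the median tested gene stayed at -0.29 with THAL-SNS-032, -0.54 with SNS-032 and -0.27 with NVP-2. With own-median centring, where the median tested gene stood at 0.36, 0.25 and 0.42 in these comparisons and at -0.066 between THAL-SNS-032 and NVP-2 and -0.31 between SNS-032 and NVP-2, the repair median was 0.070 with THAL-SNS-032, -0.29 with SNS-032 and 0.15 with NVP-2, -0.029 between THAL-SNS-032 and NVP-2 and -0.55 between SNS-032 and NVP-2. With quantile normalization it was -0.039, -0.41, 0.12, -0.078 and -0.50 in the same order, beside 0.074, 0.0082, 0.098, -0.029 and -0.21 for the median tested gene. With centring on genes of at least 5 FPKM, chosen after seeing the data, it was -0.16, -0.40, -0.0037, -0.10 and -0.51, beside 0.13, 0.14, 0.27, -0.14 and -0.27. With a pseudocount of 0.1 FPKM it was -0.16 with THAL-SNS-032, -0.0032 with NVP-2, -0.045 between THAL-SNS-032 and NVP-2 and -0.51 between SNS-032 and NVP-2. The median tested gene stood there at 0.0045, 0.0019, -0.015 and -0.18. With 5 FPKM the repair median was -0.41 with SNS-032, -0.18 with NVP-2, 0.25 between THAL-SNS-032 and SNS-032 and -0.26 between SNS-032 and NVP-2. The median tested gene then stood at 0.011, 0.0023, 0.043 and -0.13. Counts with NVP-2 became 10 lower and 20 higher with own-median centring (28.1% and 59.7% of tested genes) and 13 lower with quantile normalization (38.6%). Between THAL-SNS-032 and NVP-2 they became 18 lower with quantile normalization (35.6%), and 17 lower and 9 higher with centring on genes of at least 5 FPKM (45.4% and 24.8%).

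Single genes changed sign on the centred scale as follows. The values with own-median centring and with centring on genes of at least 5 FPKM all lie below the median tested gene of the same setting, as BLM with THAL-SNS-032 and CHEK1 with NVP-2 do with quantile normalization, so these genes did not pass the median gene. Own-median centring gave BLM 0.060, BRCA1 0.35, BRCA2 0.31 and CHEK1 0.18 with THAL-SNS-032, BRIP1 0.14, XRCC3 0.085 and BARD1 0.017 with SNS-032, and BRCA1 0.35, CHEK1 0.11 and BARD1 0.062 with NVP-2. Quantile normalization gave BLM 0.012, BRCA1 0.29 and BRCA2 0.19 with THAL-SNS-032, BRIP1 0.14 with SNS-032, and BRCA1 0.39 and CHEK1 0.015 with NVP-2. Centring on genes of at least 5 FPKM gave BRCA1 0.12 with THAL-SNS-032, BRIP1 0.025 with SNS-032 and BRCA1 0.19 with NVP-2. A pseudocount of 0.1 FPKM gave BRCA1 0.16 and CHEK1 0.035 with THAL-SNS-032, XRCC3 0.042 with SNS-032, and BRCA1 0.20 and CHEK1 0.041 with NVP-2. A pseudocount of 5 FPKM gave FANCI -0.069 and BRCA2 0.16 with THAL-SNS-032, FANCI -0.35 with SNS-032, and XRCC3 -0.39, FANCI -0.21 and BARD1 0.053 with NVP-2. The cause of the other changes was not tested.

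The labels number the libraries of each group but do not say that a number marks a shared culture. Same-numbered libraries correlated between -0.15 and 0.17 in their deviations from the group means. That correlation leaves out a shift common to all genes. Replicate 1 had the lowest median gene in each group (-0.083 in DMSO, -1.96 with THAL-SNS-032, -2.32 with SNS-032 and -2.61 with NVP-2). The correlation therefore cannot tell whether same-numbered libraries belong together. With a replicate block, 22 repair genes were called higher and 5 lower between THAL-SNS-032 and SNS-032, and 34 higher between THAL-SNS-032 and NVP-2. The shares of all tested genes called with the block are not given here, so these counts have no background beside them. Depth is unknown without counts, and 3 libraries a group limit the precision.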
